A study of Homo sapiens with 14 samples.

Results

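The non-targeting sgRNAs of a pooled base editor library were followed through a proliferation screen and a differentiation screen. They were chosen by their ID, which starts with NT in both tables of normalized counts, and this gave 1000 of 9077 sgRNAs, or 11.0% of the library. A further 7999 sgRNAs carried the ID of an m6A site and served here as the comparison. The methods give the Human GeCKO v2 library as the source of the non-targeting sgRNAs, and they have no assigned genomic site, so no coordinates or annotation belong to them.

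In a pooled screen each cell carries an sgRNA integrated in its genome, and sequencing that cassette gives the share of the culture that descends from the cells that received it. Non-targeting sgRNAs are designed to have no match in the genome. A change in their frequency is therefore used as the measure of how far sgRNAs move without an edit at a chosen site, through the sampling of cells at infection, passage, sorting and PCR and through the uneven growth of the infected cells. A base editor is a Cas9 nickase joined to a deaminase, which changes a base near the sgRNA's match without cutting both strands.

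A549 cells, a lung carcinoma line, carried the cytosine base editor FNLS-BE3 after puromycin selection, received the sgRNAs at a low multiplicity of infection and were selected with blasticidin. Cells were taken at day 0 (1 library) and at days 10, 20 and 30 of continued culture (2 libraries each). H1 human embryonic stem cells (hESCs) carried FNLS-ABE7.10(AW), an adenine base editor, received the sgRNAs in 3 independent screens, were differentiated toward definitive endoderm and were sorted into the cells of lowest (CXCR4-) and highest (CXCR4+) CXCR4, a surface marker of endoderm (1 library of each population per screen). All 13 libraries, day 0 included, came from drug-selected, editor-expressing populations that were not single clones, so no library shows the sgRNAs without an editor. The libraries hold sgRNA counts only, which carry no marker of the labelled cell type, and an H1 sample from before differentiation was not analysed here.

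The libraries held 14925937 to 16457222 reads in A549 and 8076271 to 11341078 reads in H1, of which 1765658 to 1959279 and 964805 to 1365575 lay on non-targeting sgRNAs. These totals take the step found in each library's normalized counts as 1 read, which the files do not state and which few low counts bear on. If a step held several reads, the depth would be higher and the counting error below smaller. At day 0 the median non-targeting sgRNA had a normalized count of 1712, and 90% of them lay between 907 and 3121. The lowest was NT-516 at 229 and the highest was NT-123 at 4919. Their median was 1.07 to 1.11 times that of the m6A-targeting sgRNAs in the A549 libraries and 1.09 to 1.12 times in the H1 libraries. The uneven start of the library was shared by both screens. Over the 1000 non-targeting sgRNAs, the log2 day 0 count in A549 and the mean log2 count over the 6 sorted H1 libraries correlated at r = 0.83, points that share the same plasmid library and the same sgRNA cassettes.

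As a group the non-targeting sgRNAs kept nearly the same share of the A549 culture over 30 days. They held 11.7% of the normalized count at day 0, 11.9% and 11.8% in the libraries of day 10, and 12.0% and 11.8% in those of day 20. The day 30 libraries both had 11.9%. The share was above that of day 0 in 6 of 6 later libraries. With a single day 0 library this has no replicate check. The log2 fold change (LFC) of an sgRNA was taken as log2 of its normalized count plus 1 over the day 0 count plus 1, and the median non-targeting LFC ran from 0.01 to 0.04 over the 6 libraries. It exceeded the median LFC of the m6A-targeting sgRNAs by 0.01 to 0.03 in every library, and this gap was as large after rescaling to equal totals, although the non-targeting median itself was then -0.02 in both day 30 libraries. All 6 LFCs share the day 0 library, so an error in it enters each of them.

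Individual non-targeting sgRNAs lay further from day 0 the longer the culture went on. The standard deviation of the LFC over the 1000 sgRNAs was 0.27 and 0.26 in the libraries of day 10 and 0.29 and 0.32 in those of day 20, and it reached 0.47 and 0.48 by day 30. The libraries of days 10, 20 and 30 did not overlap in this spread, and both libraries of day 30 stood well above the rest. The mean was 0.213 higher at day 30 than at day 10, and an exact two-sided permutation test over the 4 libraries gave p = 0.333, the smallest that this design allows. On the variance scale the mean was 0.0683 at day 10, 0.0914 at day 20 and 0.225 at day 30, so the last interval added more than the middle one.

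The tails widened in the same order. The range from the 1% to the 99% quantile was -0.57 to 0.63 and -0.60 to 0.62 in the day 10 libraries and -0.67 to 0.71 and -0.79 to 0.73 at day 20. By day 30 it was -1.30 to 1.08 and -1.21 to 1.10. A limit of 0.58 in size, a 1.5-fold change, held 97.5% and 97.3% of the non-targeting sgRNAs at day 10 and 95% and 92.6% at day 20. By day 30 it held 80.3% and 78.8%. The m6A-targeting sgRNAs were close to this, with 96.4% and 96.8% within the limit in the day 10 libraries, 93.6% and 93.3% by day 20 and 77.9% and 78.0% by day 30. A total of 631 non-targeting sgRNAs stayed within that limit in all 6 LFCs (63.1%, against 60.7% of all sgRNAs), and 76 passed an LFC of 1 in size, a change of 2-fold, in at least 1 library (7.6%, against 8.68%).

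The spread was far above what read counting gives. If reads were sampled from a fixed pool at the observed depth, the standard deviation of the LFC would have been lower by a factor of 5.28 and 4.93 in the day 10 libraries, 5.69 and 6.18 in the day 20 libraries and 8.93 and 9.14 in the day 30 libraries. Reads from PCR without molecular identifiers are not independent molecules, and these factors describe counting error alone.

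The ratio of replicate 1 over replicate 2 at the same day does not contain the day 0 library and gave the same order. Its standard deviation over the non-targeting sgRNAs was 0.257 at day 10, 0.301 at day 20 and 0.491 at day 30. Counting accounted for 4.02%, 2.85% and 1.21% of its variance. The replicates therefore diverged from each other by about as much as each diverged from day 0. Of the 1000 sgRNAs, 28 differed by more than 0.58 between replicates at day 10 (2.8%, against 3.03% of all sgRNAs), 48 at day 20 (4.8%, against 6.17%) and 218 at day 30 (21.8%, against 24.6%). Beyond 1 in size there was 1 at day 10 (NT-516), 3 at day 20 (NT-516, NT-509 and NT-518, the last pair named after their values were seen) and 41 at day 30. The shares of all sgRNAs beyond 1 were 0.11%, 0.43% and 5.62%.

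The difference between replicates carried over from day to day. Over the 1000 non-targeting sgRNAs the replicate ratio at day 10 correlated with that at day 20 at r = 0.58, day 20 with day 30 at 0.63 and day 10 with day 30 at 0.45. Different libraries enter at each day, but the points share the sgRNA cassette and its count level. The methods also describe continued culture and passage with cells taken on these days. Later libraries can thus hold descendants of the cells behind earlier ones. Over the m6A-targeting sgRNAs the same values were 0.57, 0.64 and 0.39. Libraries of the same replicate number thus went together. A figure legend of the study calls the A549 samples of a day biologically independent, and the methods describe neither separate infections nor what the number follows.

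Within that divergence a smaller component was shared between replicates, and it was larger in the last interval. From day 10 to day 20 the log2 ratio of an sgRNA's counts in replicate 1 correlated with that in replicate 2 at r = 0.02 (rho = 0.03), and 525 of 1000 non-targeting sgRNAs moved the same way. From day 20 to day 30 the correlation was r = 0.26 (rho = 0.23), and 579 moved the same way. The replicates share no library in either comparison. The standard deviations of these ratios were 0.180 and 0.191 in the middle interval and 0.314 and 0.310 in the last. m6A-targeting sgRNAs gave r = 0.07 and r = 0.23 with 52.0% and 56.9% moving the same way, so sgRNAs with and without an m6A target had similar values. Whether the intervals differ in this correlation was not tested.

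The non-targeting sgRNAs with the lowest mean LFC at day 30 were NT-925, NT-721, NT-113, NT-952 and NT-944. NT-925 started at a normalized count of 599 and read 465 and 381 at day 10, then 376 and 464, and finally 130 and 327 at day 30, where its LFCs were -2.20 and -0.87. The lower value at day 30 was in replicate 1, and the gap between replicates opened after day 20. NT-721 went from 1238 at day 0 through 766 and 790 at day 20 to 307 and 718 at day 30, again with the lower value in replicate 1.

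Other low sgRNAs were nearer between replicates. NT-944 counted 1367 at day 0, then 646 and 668 at day 10, 888 and 611 by day 20 and finally 536 and 542. It was the lowest by mean LFC at day 20 (-0.62 and -1.16), was already 2-fold below day 0 at day 10 (-1.08 and -1.03) and its day 30 LFCs of -1.35 and -1.33 were close. NT-113 had -1.64 and -1.12 and NT-952 had -1.61 and -1.10 at day 30. NT-344, the lowest at day 10 with -1.37 and -0.97, lay at -0.92 and -0.74 by day 30, nearer to day 0.

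The highest mean LFCs at day 30 belonged to NT-418, NT-995, NT-922, NT-241 and NT-872. NT-418 was the highest at days 10, 20 and 30. Its normalized count was 841 at day 0, then 1561 and 1293 at day 10, 1861 and 1538 by day 20 and finally 2384 and 1857, so every later library lay above day 0 and each replicate was higher at every step than at the one before. NT-995 stood at 1187 at day 0, then 1734 and 1700 at day 10, 1783 and 1806 by day 20 and finally 2965 and 2609, with LFCs of 1.32 and 1.14 at the end. Its replicates hardly differed at any day.

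NT-922 went from 754 at day 0 to 1751 and 1622 at day 30 (1.21 and 1.10). The others depended more on a single replicate. NT-241 had day 30 LFCs of 0.69 and 1.58, and NT-872, the fourth lowest in count at day 0 with 562, had 1.56 and 0.66. NT-123, the most frequent at day 0, stayed between 4098 and 5338 in every later library, and its LFCs lay between -0.26 and 0.12.

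NT-516 was the lowest at day 0 and the most discordant between replicates. Its normalized count of 229 became 373 and 68 by day 10, 212 and 95 by day 20 and 249 and 40 by day 30. Replicate 1 was above day 0 at day 10 (LFC 0.70) and near it afterwards (-0.11 and 0.12), while replicate 2 was lower at every day, and its replicate ratio of 2.43 at day 10 and 2.60 at day 30 was the largest of the 1000. Without it the standard deviation of the replicate ratio was 0.245 at day 10 and 0.484 at day 30.

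The study set a limit of 1 in size for the LFC of day 30 over day 0. Applied here to the mean of both replicates and to every day, 2 non-targeting sgRNAs, NT-344 and NT-944 (0.2%), lay below -1 and 0 above 1 at day 10, against 0.0661% and 0.011% of all 9077 sgRNAs. At day 20 the counts were 0 and 1 (NT-418), against 0.165% and 0.0441%. At day 30 they were 10 (1.0%) and 10 (1.0%), against 1.52% and 0.705% of all sgRNAs. The non-targeting share was thus near that of the whole library in both directions. The value nearest the limit was -0.98 inside and -1.01 outside on the low side and 0.98 and 1.01 on the high side. Single libraries gave other counts. The day 10 replicates had 3 and 2 below -1 and 0 and 0 above 1, next to 0.121% below and 0.0441% above among all sgRNAs in each. The day 20 replicates had 0 and 4 below -1 (0.308% and 0.386% of all) and 1 and 0 above 1 (0.0661% and 0.143%). At day 30 there were 25 below -1 and 17 above 1 in replicate 1 of day 30 (3.05% and 1.64% of all sgRNAs), and 22 and 18 in replicate 2 (2.92% and 1.63%). Rescaling to equal totals, or to equal non-targeting medians, gave 11 below -1 and 6 above 1 at day 30. All sgRNAs were not counted after rescaling, so these numbers have no background.

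limma, a linear model that pools the spread over all sgRNAs, called 0 non-targeting sgRNAs at day 10, 20 or 30 over day 0 at an adjusted p under 0.05. The background was 0% at days 10 and 20, and at day 30 it was 0% lower and 0.011% higher. At an unadjusted p under 0.05 there were 15, 24 and 138 non-targeting sgRNAs (1.5%, 2.4% and 13.8%), next to 1.4%, 2.79% and 13.0% of all sgRNAs. The smallest adjusted p was 0.232 for NT-995 at day 30. With the replicate number as a block, limma called 25 at day 30, 3 lower and 22 higher, against 0.485% and 1.45% of all sgRNAs, and NT-418 and NT-995 then had an adjusted p of 0.0382. The 3 lower ones were NT-113, NT-952 and, named after its values were seen, NT-846. Day 0 has a single library and so no counterpart within a replicate. Both fits used a single spread per sgRNA for all days. The variance of the replicate ratio, however, was 0.066, 0.090 and 0.241 at days 10, 20 and 30. That single spread was thus on average too wide for day 10 and too narrow for day 30. The numbers of sgRNAs under a p limit are therefore not comparable between days.

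The spread differed with the starting count. The 1000 non-targeting sgRNAs were split into 5 quintiles of 200 by the day 0 count, which ran from 229 to 1213 in the lowest quintile and from 2389 to 4919 in the highest. From the lowest to the highest quintile the standard deviation of the replicate ratio was 0.349, 0.260, 0.247, 0.203 and 0.189 at day 10. At day 20 it was 0.372, 0.353, 0.276, 0.246 and 0.231. At day 30 it was 0.582, 0.591, 0.450, 0.419 and 0.372. Each quintile had a smaller spread than the one below it, apart from the lower pair at day 30, which had nearly the same value.

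The lowest quintile had 1.85, 1.61 and 1.57 times the spread of the highest at days 10, 20 and 30, while read counting alone would have given 1.68, 1.69 and 1.75 times. The ratio of the observed spread to that of counting varied little with the quintile, from 4.51 to 5.34 for day 10, 5.53 to 6.45 for day 20 and 8.37 to 10.1 for day 30. Spread and counting error therefore shrank with the count by similar factors, at a level several times higher. The rank correlation between the size of the replicate ratio and the day 0 count was small over the 1000 sgRNAs, at rho = -0.20, -0.22 and -0.18.

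The counts past the limit are given by quintile with those of the m6A-targeting sgRNAs. Of the 10 non-targeting sgRNAs with a mean LFC below -1 at day 30, the quintiles held 4, 3, 2, 1 and 0 from low to high count. Of the 10 above 1 they held 7, 2, 1, 0 and 0. Within the same limits of the day 0 count there were 1880, 1867, 1703, 1466 and 1083 m6A-targeting sgRNAs. Of these, 55, 36, 14, 8 and 6 lay below -1 and 38, 10, 3, 2 and 0 above 1. Of all sgRNAs, the quintiles had 2.91%, 2.02%, 0.938%, 0.596% and 0.538% below -1. Above 1 they had 2.15%, 0.576%, 0.208%, 0.119% and 0.0768%, so the low end held most in each set. The median LFC of the lowest quintile was 0.10 to 0.15 in the 6 libraries and that of the highest quintile was -0.04 to 0.02, but the day 0 count is also the denominator of the LFC. In the ratio of day 30 over day 10, which leaves day 0 out, the median of the lowest quintile was -0.01 in replicate 1 and 0.02 in replicate 2, and no upward shift was seen.

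By the LFC over each whole set, the m6A-targeting sgRNAs were a little more dispersed than the non-targeting sgRNAs. The non-targeting standard deviation was 0.920 to 0.995 times that of the m6A-targeting sgRNAs and was the lower in 9 of 9 LFCs, the 6 of A549 and the 3 of H1. Within the same limits of the day 0 count the non-targeting spread was the lower in 41 of 60 values, with ratios from 0.860 to 1.11. Those values mix LFCs with A549 replicate ratios, which are built from the same libraries. Each A549 LFC had the lower non-targeting spread in only 2 to 4 of its 5 quintiles, and each H1 LFC in 3 to 5. The difference in spread between the sets was not tested, because the A549 LFCs share day 0 and 3 H1 screens cannot give an exact sign-flip p under 0.25.

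In H1 the LFC of CXCR4+ over CXCR4- was computed within each screen. The non-targeting LFCs were centred near 0, with medians of 0.00, -0.03 and -0.03 in screens 1, 2 and 3. Their standard deviation was 0.45, 0.58 and 0.44. Screen 2 was the widest and the other screens were alike. LFCs below -1 and above 1 were held by 11 and 12 sgRNAs in screen 1 (1.72% and 2.3% of all sgRNAs), 33 and 44 in screen 2 (3.26% and 5.52%) and 19 and 7 in screen 3 (1.74% and 1.43%). The 1% and 99% quantiles were -1.02 and 1.05 in screen 1, -1.41 and 1.66 in screen 2 and -1.06 and 0.95 in screen 3. These spreads, reached between populations sorted from 1 culture, were close to those of 30 days of growth in A549, although cell line, editor and depth differ. They exceeded read counting by a factor of 6.44, 8.71 and 6.07.

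Non-targeting LFCs of different screens were nearly unrelated. Over the 1000 sgRNAs, screen 1 correlated with screen 2 at r = 0.08 and with screen 3 at r = 0.03, and for screens 2 and 3 r was 0.02. The LFC had 1 sign in all 3 screens for 255 non-targeting sgRNAs (25.5%), compared with 25.0% of all sgRNAs. Only 5 passed 0.58 in the same direction in all 3 screens (0.5%, against 0.474% of all), and these 5, NT-516, NT-128, NT-418, NT-65 and NT-471, were lower in CXCR4+. Among all 9077 sgRNAs, 22 were lower and 21 higher in CXCR4+ by this limit. The difference in direction was not tested. NT-65 and NT-471 were named after their values were seen. NT-65 had 891, 813 and 981 in CXCR4- and 456, 537 and 639 in CXCR4+, and NT-471 had 900, 1007 and 708 in CXCR4- and 584, 298 and 450 in CXCR4+. The populations did not overlap for either. How many of all sgRNAs had no such overlap was not counted, so this has no background.

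Libraries sorted from the same culture were the closest by their median, but the closest single pair came from different screens. Over the 15 pairs of the 6 sorted libraries, the standard deviation of the log2 ratio of non-targeting counts was lowest, at 0.378, between the CXCR4+ libraries of screens 1 and 2. The 3 pairs from the same screen lay between 0.438 and 0.583 (median 0.451), the 6 pairs of the same population between 0.378 and 0.634 (median 0.541), and the remaining 6 pairs between 0.474 and 0.662 (median 0.528). Within screen 2 the CXCR4- library stood farther from its partner (0.583) than the CXCR4+ library of screen 1 did from that partner. The CXCR4- library of screen 2 was the least like the others, with 0.547 to 0.662 against the libraries other than its partner. The part of this library in the width of screen 2 was not tested.

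Some sgRNAs, chosen after their values were seen, show these patterns singly. NT-792 had normalized counts of 48.7, 94.3 and 1395 in the CXCR4- libraries of screens 1, 2 and 3 and of 85.7, 74.9 and 882 in the CXCR4+ libraries. It was low in both populations of screens 1 and 2 and not in screen 3, a difference between screens that the LFC within a screen does not show, and it stood at 1451 at day 0 in A549. NT-485 had 799, 82.3 and 807 in CXCR4- and 530, 848 and 876 in CXCR4+. A single low library gave it the highest LFC of the 1000 non-targeting sgRNAs, 3.35 in screen 2, next to -0.59 and 0.12. NT-753 had 678, 1253 and 658 in CXCR4- and 373, 206 and 448 in CXCR4+, lower in CXCR4+ in every screen and most so in screen 2 (-0.86, -2.60 and -0.55).

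By the median LFC over the 3 screens, the lowest non-targeting sgRNAs were NT-516, NT-481, NT-128, NT-36 and NT-574. NT-516 had 204, 427 and 49.3 in CXCR4- and 68.2, 100 and 5.06 in CXCR4+. It was rarer in CXCR4+ in all 3 screens (-1.57, -2.08 and -3.05), and its mean in CXCR4+ of 57.8 was under the minimum of 200 that the methods set for each population, so it was not tested. NT-128 had 857, 794 and 681 in CXCR4- and 417, 280 and 451 in CXCR4+, and its LFCs were -1.04, -1.50 and -0.59. The populations did not overlap, again without a counted background. NT-481 had LFCs of -1.13, -1.64 and 0.16, NT-36 had -1.03, -1.29 and 0.06 and NT-574 had -0.15, -0.96 and -1.11, and these did not go the same way or by the same amount in every screen.

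The highest median LFCs were those of NT-409, NT-909, NT-964, NT-211 and NT-360. NT-409 had 121, 94.3 and 177 in CXCR4- and 418, 90.5 and 514 in CXCR4+, higher in screens 1 and 3 (1.78 and 1.53) and level in screen 2 (-0.06). Its mean in CXCR4- of 131 was also under the minimum. NT-909 had 105, 213 and 332 in CXCR4- and 307, 287 and 655 in CXCR4+, and was the member of these 5 with a positive LFC in every screen (1.54, 0.43 and 0.98). NT-964, NT-211 and NT-360 shared another pattern, with LFCs of 0.94, 0.89 and 0.96 in screen 1, 0.95, 0.97 and 0.88 in screen 2 and -0.38, -0.38 and -0.49 in screen 3. A median over 3 screens passes over the opposite value in the last.

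The study called an sgRNA enriched at a one-sided p under 0.05 and a median LFC beyond 0.58 in size. A total of 997 non-targeting sgRNAs passed the minimum count, all but NT-516, NT-409 and NT-862. With limma in place of the study's test, 22 of them were called in CXCR4- and 13 in CXCR4+ (2.21% and 1.30%, against 1.74% and 2.05% of all sgRNAs tested). The size limit alone was passed by 40 of 1000 below -0.58 and 27 above 0.58, next to 3.61% and 4.11% of all sgRNAs, and the values nearest to it were -0.5798 and -0.5819 on the low side and 0.577 and 0.583 on the high side. A median LFC beyond 1 was reached by 4 below (NT-516, NT-481, NT-128 and NT-36) and 1 above (NT-409), against 0.353% and 0.408% of all. No non-targeting sgRNA was called by limma at an adjusted p under 0.05 (0 of 997, background 0%), and 32 had an unadjusted two-sided p under 0.05 (3.21%, background 3.76%). This fit had no term for the screen. With the screen as a block, limma gave 53 such p values (5.32%, background 5.45%). By the limits above it then called 24 in CXCR4- and 15 in CXCR4+, against 173 and 200 of all 9044.

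Calls by these limits changed when a screen was left out. The median LFC is then the mean of the screens kept, and the fit has fewer libraries. The measure therefore changes along with the screens. Without screen 1 the counts were 27 in CXCR4- and 23 in CXCR4+ of 997, against 242 and 294 of all 9044. Omitting screen 2 gave 19 and 19 (209 and 216 of all), and omitting screen 3 gave 41 and 33 (334 and 403 of all). Leaving out screen 3 moved both counts the most, among the non-targeting and among all sgRNAs. The screens kept in that case, 1 and 2, hold the most similar pair of libraries. Whether this bears on the counts was not tested.

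The total share of non-targeting sgRNAs differed little between the sorted populations. It was 11.9%, 12.0% and 11.9% of the normalized count in the CXCR4- libraries and 11.9%, 11.9% and 11.7% in the CXCR4+ libraries of screens 1, 2 and 3. The means were 12.0% ± 0.0873 (SD, n = 3) and 11.8% ± 0.136 (SD, n = 3), a difference of -0.131 percentage points. The share was lower in CXCR4+ in 3 of 3 screens. The exact two-sided permutation test over the 6 libraries gave p = 0.3, where the smallest possible is 0.1, and the exact sign-flip test within screens gave p = 0.25, the smallest it allows. The ratio of the non-targeting median to the m6A-targeting median was lower in CXCR4+ in only 2 of 3 screens. In screen 1 it was 1.10 in CXCR4+ and 1.09 in CXCR4-. For this ratio the permutation test gave p = 0.3 and the sign-flip test p = 0.5.

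In H1 too, sgRNAs of higher count had the smaller spread. Split by quintiles of the mean count in the libraries of the other screens, so that the grouping shares no library with the LFC, the standard deviation went from 0.591 in the lowest quintile to 0.327 in the highest in screen 1, from 0.802 to 0.415 in screen 2 and from 0.540 to 0.353 in screen 3. The lowest quintile thus had 1.81, 1.93 and 1.53 times the spread of the highest. In screen 2, LFCs beyond 1 in size occurred in 39, 17, 9, 8 and 4 sgRNAs from the lowest to the highest quintile. In screen 1 they occurred in 14, 3, 3, 3 and 0, and in screen 3 in 12, 8, 4, 2 and 0.

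The same order held by the A549 day 0 count, which comes from another cell line. From its lowest to its highest quintile the standard deviation of the H1 LFC went from 0.578 to 0.359, from 0.781 to 0.415 and from 0.548 to 0.324 in screens 1, 2 and 3. By the quintiles of the mean count in the other H1 screens, the excess over counting lay between 6.24 and 6.61 in screen 1, 8.27 and 8.86 in screen 2 and 5.45 and 6.78 in screen 3. Screen 2 stood above the others in every quintile, while the ranges of screens 1 and 3 overlapped.

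The count level of an sgRNA was alike in both screens, and the width of a quintile fell with its count in H1 and, with 1 near tie, in A549. The direction was not shared. For single sgRNAs the size of the H1 LFC was only weakly related to the A549 day 0 count. The rank correlations were rho = -0.20, -0.17 and -0.15 in screens 1, 2 and 3. Whether an sgRNA that moved far in A549 also did so in H1 was not tested. Over the 1000 non-targeting sgRNAs the mean LFC at day 30 in A549 and the median LFC in H1 correlated at r = 0.04 (rho = 0.02), from separate libraries. In H1 alone, 501 stayed within 0.58 in all 3 LFCs (50.1%, against 48% of all sgRNAs) and 116 passed 1 in at least 1 screen (11.6%, against 14.6%). Over both screens 328 stayed within 0.58 in all 9 LFCs (32.8%, against 31.6% of all), and 14 passed 1 in at least 1 LFC of each (1.4%, against 1.77%). These shares were near those of the whole library. By the mean at day 30 and the median in H1, only NT-418 and NT-516 passed the limits of both screens. The share of all sgRNAs that did so was not counted, so this number has no background. NT-516 was also under the minimum count in H1.

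NT-418 and NT-516 differ in kind. NT-418 had H1 counts of 917, 991 and 1095 in CXCR4- and 597, 534 and 577 in CXCR4+. These did not overlap, again without a counted background, and its LFCs were -0.62, -0.89 and -0.92. It was above day 0 in every later A549 library and lower in CXCR4+ in every H1 screen, each time with close replicates, and the adjusted p by limma was 0.232 at day 30 and 0.9997 in H1. NT-516 was at the bottom of the library from day 0 onward, and it had the lowest count of all 1000 in 5 of the 6 later A549 libraries and its replicates went apart.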

How the data were processed

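Trimming with Cutadapt and counting per sgRNA with MAGeCK are given in the methods, and the submitters' processing notes add CASAVA 1.4. Versions of the other tools were not found in the sources read. The authors deposited a table of normalized counts per screen, treated here as a signal per sgRNA, that is a read count multiplied by a factor of the library. Each library's values were integer multiples of its own smallest step, to within 0.05 reads, and this step was taken as 1 read for the read totals, which few low counts bear on and the files do not state, and the counting error is that of Poisson reads on these totals. LFCs used a pseudocount of 1. Both replicates were averaged at each A549 day and the median of the 3 screens was taken in H1. The members, limits and comparisons were chosen with earlier results of these data known.

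limma 3.58.1 in R 4.3.3 (lmFit, eBayes with a variance trend) was fitted on log2(signal + 1) over all 9077 sgRNAs and 7 libraries in A549, and over the 6 sorted libraries and the 9044 sgRNAs with a mean of at least 200 in each population in H1, with Benjamini-Hochberg adjustment over all sgRNAs tested. The main fits had the day or the population as the factor and no term for the replicate. limma was tested on simulated data with known changes. It took the place of the MAGeCK test because the values are normalized. Single values were compared by exact permutation over libraries. Python 3.11.15, numpy 2.4.6, scipy 1.17.1 and pandas 2.3.3 served the other steps.

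Groups came from the sample labels. The numbers pair the libraries of an H1 screen, since the methods have both populations sorted from the same infected culture. Their deviations from the population means correlated at 0.09, 0.07 and 0.29 over all sgRNAs, and those of CXCR4+ of screen 2 and CXCR4- of screen 1 at 0.11, so the pairing of screens 1 and 2 rests on the methods. In A549 the pairing comes from the data, where the replicate differences of days 10, 20 and 30 correlated at 0.57 (10 and 20), 0.64 (20 and 30) and 0.39 (10 and 30). A549 libraries of a day are separate samples by their labels and biologically independent by a figure legend, and whether they are separate infections is not stated, so p values measure the spread between these libraries.

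Named were the 5 lowest and 5 highest mean LFCs at day 30, the lowest and highest at days 10 and 20, the 5 lowest and 5 highest median LFCs in H1, members past the limits of both screens, and the lowest and highest day 0 count. Others named were chosen after their values were seen. Alternatives were pseudocounts of 0.5 and 10, equal totals, equal non-targeting medians, a day 0 count of at least 500, a robust spread, a fit without the variance trend, no minimum count in H1, the replicate block and leaving out each replicate.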

Additional observations from a re-analysis of the deposited data

Results flagged for a closer look

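For 2 of the non-targeting sgRNAs named here, both libraries of an A549 day moved one way from day 0 and both libraries of a later day moved the other way. Over the whole set this held for 26 of 1000 from day 10 to day 20, for 61 from day 10 to day 30 and for 33 from day 20 to day 30 (2.6%, 6.1% and 3.3%), next to 2.70%, 6.61% and 3.97% of all sgRNAs. These differences were not tested, and they share the day 0 library. NT-360 had LFCs of 0.12 and 0.03 at day 10 and of -0.65 and -0.46 at day 30, a log2 difference of means of -0.627. NT-548, named after its values were seen, had LFCs of 0.19 and 0.15 at day 10, then 0.02 and 0.02, and finally -0.18 and -0.23. Its mean at day 30 was lower than at day 10 by a log2 difference of -0.373 and lower than at day 20 by one of -0.230. In H1, NT-548 was higher in CXCR4+ in all 3 screens, with 914, 966 and 1454 in CXCR4- and 1521, 1852 and 2133 in CXCR4+.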

How the results depend on the processing

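Of 141 alternative values for 22 results, 118 stayed within the limit set for their kind of result. Counts were held to 1.5 times, standard deviations to the spread between replicates or screens and correlations to 0.05. Leaving out a replicate or a screen cannot move a mean standard deviation past that spread. Such values stayed within the limit by construction and say nothing on stability. The difference in the H1 share was judged by its sign alone, which was kept, and its size was not judged. The 23 values outside these limits follow. A robust spread from the median absolute deviation gave 0.244, 0.278 and 0.440 for the LFC at days 10, 20 and 30, and 0.235 and 0.453 for the ratio of replicate 1 over replicate 2 at days 10 and 30, below the standard deviations in each case. That ratio's standard deviation was 0.246 and 0.484 at days 10 and 30 over sgRNAs with a day 0 count of at least 500, and 0.245 and 0.484 without NT-516, a setting chosen after seeing the data. NT-516 and NT-815 were the members under 500. With equal totals, and likewise with equal non-targeting medians, 0 non-targeting sgRNAs had a mean LFC above 1 at day 20 and 6 at day 30. The same counts over all sgRNAs were not made.

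With the replicate number as a block, which pairs the libraries, limma called 25 at day 30 in A549. The block left the calls at days 10 and 20, and the adjusted calls in H1, at 0. Leaving out a replicate gave 0 to 4 below -1 and 0 to 1 above 1 at day 20, and 22 to 25 below -1 and 17 to 18 above 1 at day 30. At day 30 the LFC then comes from a single library, so the mean of both replicates held fewer sgRNAs past the limit than either alone. Leaving out an H1 screen gave 19 to 41 enriched in CXCR4- (41 without screen 3) and 19 to 33 in CXCR4+ (33 without screen 3, 23 without screen 1). Among all 9044 sgRNAs tested the counts were 209 to 334 and 216 to 403. A count model on whole reads was not run, because the tables hold too few low values to settle that a step is 1 read.

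With a step taken as 1 read, counting error was 1.21% to 4.02% of the variance between replicates over all non-targeting sgRNAs. A single day 0 library, 2 libraries per later day and 3 screens limit every test of a single value.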
